A study of Homo sapiens with 6 samples.

Results

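OPRK1, FOLH1, BCHE, DDC and SI are grouped here as genes that androgen lowers in prostate cancer cells, and they were followed in 6 RNA-seq libraries of LNCaP, a human prostate cancer cell line that responds to androgen. They are 5 of the 22279 transcript IDs in the deposited count table, 1 ID for each gene. They were chosen by name, with earlier results of these data known, and all 5 had enough reads to be tested. Of the libraries, 3 came from LNCaP cells with a hairpin that depletes RB (shRB) and the other 3 carried a control hairpin (shCON). Both groups were kept for 72 h in the condition the labels call CDT, described for the series as deficient in hormone, so the comparison asks how RB depletion changes these genes when androgen is lacking. The design has no arm with androgen, so repression itself was not measured, and it has 1 cell line and 1 hairpin label per group, so RB loss and the particular hairpin or cell population cannot be told apart.

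Androgen is best known in the prostate for switching genes on, such as those of the prostate kallikreins. On another set of genes the hormone lowers transcription, with the help of corepressors that include histone demethylases, histone deacetylases and Polycomb proteins, and these genes recover when hormone is withdrawn. RB, the retinoblastoma protein, restrains E2F transcription factors and can also sit in repressor complexes on chromatin. The members here have unlike functions: OPRK1 encodes the kappa opioid receptor, FOLH1 the prostate-specific membrane antigen, BCHE butyrylcholinesterase, DDC aromatic L-amino acid decarboxylase and SI the intestinal enzyme sucrase-isomaltase.

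The members did not move as 1 group. FOLH1, BCHE and SI fell in shRB, to between 58.8% and 71.7% of the shCON level, whereas OPRK1 and DDC stood at 110.6% and 106.4% and did not pass the test. Of all 11712 genes tested, 25.3% passed, 12.5% as lower and 12.8% as higher (edgeR quasi-likelihood test, Benjamini-Hochberg adjusted p under 0.05), against 3 of the 5 members, all lower. The groups did not overlap in CPM for 4 of the 5 members, against 41.1% of tested genes. The members were chosen with earlier results of these data known, so these shares are no independent evidence of an excess. Over all genes, 863 were higher and 912 lower without shCON 1, and 969 and 964 without shCON 3, against 1499 and 1459 with all libraries. The median log2 fold change was −0.01 over all tested genes. Total counts ranged from 9780579 to 10898768 in shRB and from 6115310 to 20091488 in shCON. RB1 itself averaged 5.01 ± 1.06 CPM in shRB and 54.6 ± 1.93 CPM in shCON (SD, n = 3 each), and each library matched its label. CPM here is the count scaled to the library total after TMM adjustment.

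**Figure D1:**
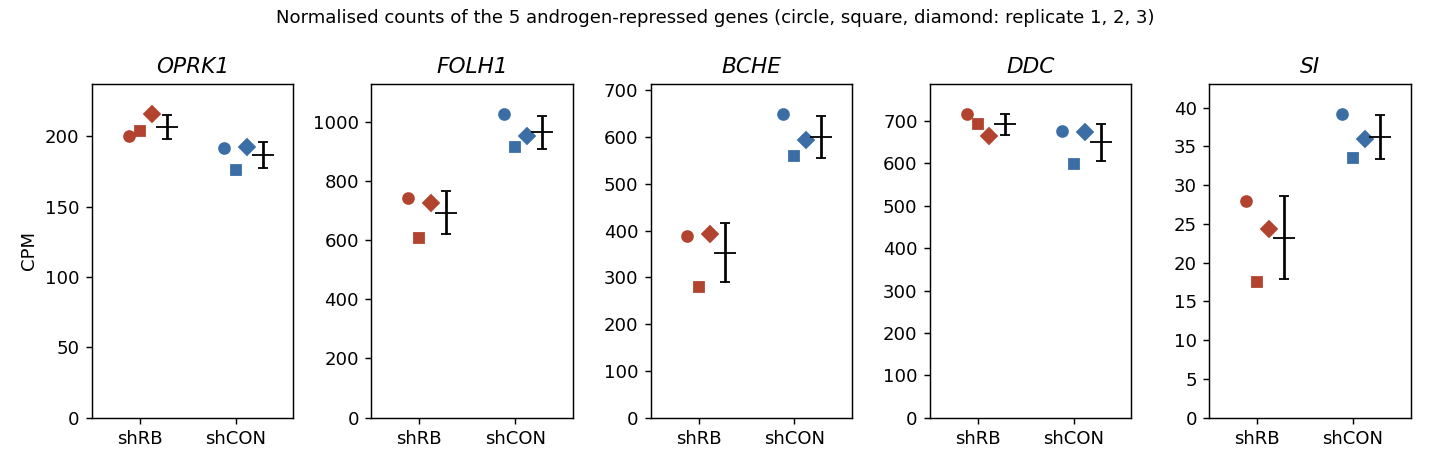
Normalised counts (CPM, linear axes from 0) of OPRK1, FOLH1, BCHE, DDC and SI in the 3 shRB libraries (red, left) and the 3 shCON libraries (blue, right), with the mean and SD in black. For FOLH1, BCHE and SI every shRB library lies under every shCON library, and the square of shRB 2 is the lowest.

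The RefSeq promoter table held 3 of the 5 genes, BCHE, SI and DDC. The 250 bases before the start of BCHE and of SI are shown because these genes fell together and are near neighbours on chromosome 3, and those of DDC because it did not pass the test. All are from RefSeq on GRCh38.p14, on the minus strand, written 5′ to 3′: chr3:165837424-165837673 for BCHE, chr3:165078497-165078746 for SI and chr7:50561072-50561321 for DDC, the nearer of its 2 listed promoters to the start of the counted transcript. Capitals mark an androgen response half-site, TGTTCT on either strand.
BCHE: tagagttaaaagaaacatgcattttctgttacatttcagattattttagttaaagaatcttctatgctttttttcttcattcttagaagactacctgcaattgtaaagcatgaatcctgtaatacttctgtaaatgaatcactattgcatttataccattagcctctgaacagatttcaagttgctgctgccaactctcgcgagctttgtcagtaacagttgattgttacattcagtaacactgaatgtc
SI: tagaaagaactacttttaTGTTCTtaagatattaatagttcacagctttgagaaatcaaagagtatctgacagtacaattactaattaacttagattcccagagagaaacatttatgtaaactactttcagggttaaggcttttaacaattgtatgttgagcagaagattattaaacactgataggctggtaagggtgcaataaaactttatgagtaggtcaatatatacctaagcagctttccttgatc
DDC: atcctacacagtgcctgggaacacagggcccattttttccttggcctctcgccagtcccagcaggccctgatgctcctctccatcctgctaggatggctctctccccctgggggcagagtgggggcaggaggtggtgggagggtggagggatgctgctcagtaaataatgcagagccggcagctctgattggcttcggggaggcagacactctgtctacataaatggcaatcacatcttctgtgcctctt

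The promoters of BCHE and SI are AT-rich, and all 3 windows, that of DDC included, hold few CpG. GC content was 33.2% for BCHE and 31.6% for SI, against 58.0% for DDC, and the median over 35116 RefSeq promoters was also 58.0%. BCHE held 2 CpG and SI 0, DDC held 3, and the median promoter held 11. No more CpG than in BCHE, SI and DDC was held by 22.9%, 6.06% and 29.3% of all promoters. The half-site TGTTCT was found once, in SI, at positions −232 to −227 counted from the start, and 12.4% of all promoters hold it. The full androgen response element, AGAACA and TGTTCT 3 bases apart, the E2F sites TTTGGCGC and TTTCGCGC and the cell cycle element TTTGAA were searched on both strands and were not in these windows. They are in 0.00285%, 0.968% and 13.3% of all promoters. These matches describe letters only.

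FOLH1, on chromosome 11, a membrane-bound peptidase that releases glutamate from folate and from a brain dipeptide and that is used as an imaging target in prostate cancer, was one of the most abundant members. Its counts scaled to 741, 608 and 725 CPM in shRB 1 to 3, against 1025, 916 and 952 CPM in shCON 1 to 3. All 3 shRB libraries lay under the shCON libraries, as they did for 20.2% of all tested genes, and the lowest value was that of shRB 2. The log2 fold change was −0.48 ± 0.09 (SE; edgeR adjusted p = 0.0013), with a 95% interval of −0.67 to −0.29. FOLH1 has a close copy, FOLH1B, which was not found by name in the count table. Reads of FOLH1B may be counted with FOLH1, which leaves the value uncertain.

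BCHE, which hydrolyses choline esters and other ester drugs and toxins, had the largest change of the 5 genes. Its level was 388, 280 and 392 CPM in shRB 1 to 3 and 649.7, 559.6 and 593 CPM in shCON 1 to 3. All 3 shRB libraries were lower than all 3 shCON libraries, and shRB 2 was again the lowest. The log2 fold change was −0.77 ± 0.11 (SE; edgeR adjusted p = 0.00028; 95% interval −1.01 to −0.52), and 4.06% of tested genes had a lower one.

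SI, which splits sucrose and starch fragments at the brush border of the small intestine, was the least abundant member, yet it was read in every library. It had 307, 165 and 252 counts in shRB 1 to 3 and 799, 334 and 220 counts in shCON 1 to 3. Scaled for depth, that was 27.9, 17.5 and 24.3 CPM in shRB and 39.2, 33.5 and 35.9 CPM in shCON, with no overlap. The log2 fold change was −0.64 ± 0.14 (SE; edgeR adjusted p = 0.0052; 95% interval −0.95 to −0.33).

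OPRK1, on chromosome 8, encodes a G protein-coupled receptor for dynorphin peptides. It did not pass the test. Its level was 199.9, 204 and 216 CPM in shRB 1 to 3 and 192, 176 and 192 CPM in shCON 1 to 3. The 3 shRB libraries lay above the 3 shCON libraries, as did 21% of all tested genes. The log2 fold change was 0.15 ± 0.07 (SE; edgeR adjusted p = 0.16), with a 95% interval of −0.01 to 0.30. It passed when the fit carried a correction for GC content, at 0.18 (adjusted p = 0.013).

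DDC, on chromosome 7, which makes dopamine from L-DOPA and serotonin from 5-hydroxytryptophan and is also a marker of neuroendocrine cells, was close to level between the groups. Its values were 717, 694 and 666 CPM in shRB 1 to 3 and 676, 599.7 and 675 CPM in shCON 1 to 3, and the groups overlapped. The log2 fold change was 0.09 ± 0.07 (SE; edgeR adjusted p = 0.41), with a 95% interval of −0.07 to 0.25. A fall of the size measured for BCHE, SI or FOLH1 lies outside that interval.

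**Figure D2:**
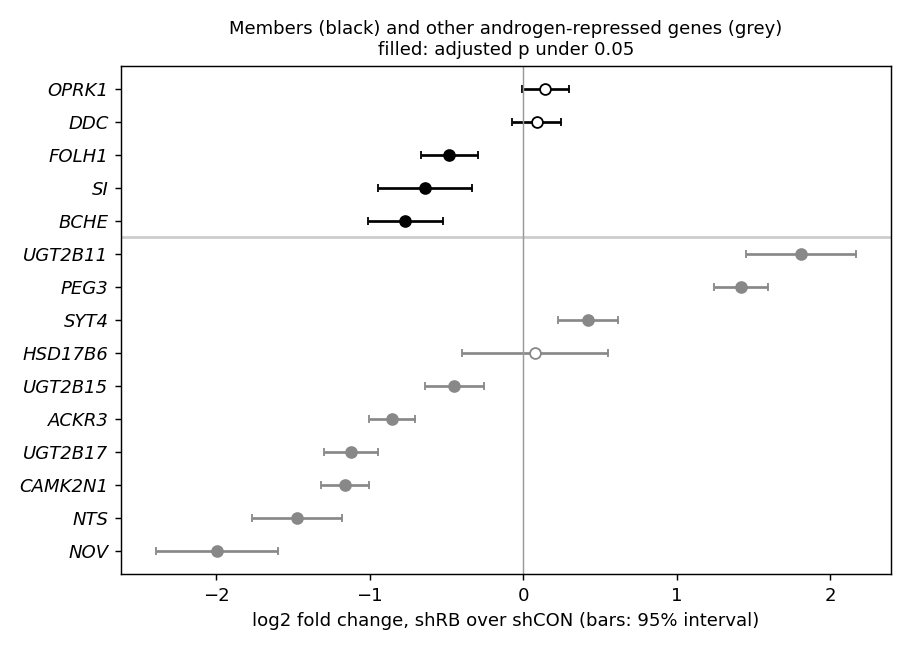
Log2 fold change of shRB over shCON with its 95% interval for the 5 members (black) and 10 of the 11 tested genes of a list of other androgen-repressed genes (grey), filled where the edgeR adjusted p was under 0.05. FOLH1, SI and BCHE lie between −0.48 and −0.77, OPRK1 and DDC at 0.15 and 0.09, and the other genes between −1.99 and 1.81.

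Per kilobase of the counted transcript, the order of the levels was DDC, FOLH1, BCHE, OPRK1 and SI in both groups. In shRB, DDC had 391.7 to 422 CPM per kilobase and FOLH1 225 to 275, with no overlap. In shCON, DDC had 353 to 398 and FOLH1 339.5 to 380.2, so these neighbours in the order overlapped there. BCHE followed with 113.9 to 159.8 CPM per kilobase in shRB and 228 to 265 in shCON, OPRK1 with 39.9 to 43.1 in shRB and 35.1 to 38.3 in shCON, and SI with 2.91 to 4.65 in shRB and 5.58 to 6.52 in shCON, none of which overlapped with the next. Of 11674 tested genes with a transcript length, FOLH1 ranked 288 in shRB and 175 in shCON by this measure, and BCHE 595 in shRB and 292 in shCON.

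Ratios between members were also taken within each library. The log2 ratio of BCHE to DDC was −0.88, −1.31 and −0.76 in shRB 1 to 3, against −0.06, −0.10 and −0.19 in shCON 1 to 3. The log2 ratio of OPRK1 to DDC was −1.84, −1.77 and −1.63 in shRB and −1.82, −1.77 and −1.81 in shCON, with overlap. The log2 ratio of BCHE to SI averaged 3.94 ± 0.12 in shRB and 4.05 ± 0.01 in shCON (SD, n = 3 each), lower in shRB without overlap. That of FOLH1 to BCHE averaged 0.98 ± 0.12 in shRB and 0.68 ± 0.03 in shCON (SD, n = 3 each), also without overlap. By the root mean square difference of mean-centred log2 CPM over the 6 libraries, a measure in which 0 is the same pattern, OPRK1 and DDC (0.07) and BCHE and SI (0.09) were the most alike of the 10 pairs, and OPRK1 and BCHE the least (0.49).

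The library shRB 2 stood apart in the members that fell. It deviated from the shRB mean by −0.38 in SI, −0.32 in BCHE and −0.18 in FOLH1 on the log2 scale, but by −0.02 in OPRK1 and 0.00 in DDC. Across 11674 tested genes, its deviation and transcript GC content had a Spearman correlation of 0.69, against −0.50 in shRB 1 and −0.54 in shRB 3, and −0.51, 0.52 and −0.09 in shCON 1 to 3 (genes are not independent replicates). In shCON 2 the members did not split in this way. They deviated from the shCON mean by −0.11 in SI, −0.10 in BCHE, −0.07 in FOLH1, −0.08 in OPRK1 and −0.11 in DDC. The counted transcripts had a GC content of 37.7% for BCHE, 38.3% for SI, 44.3% for FOLH1, 45.2% for OPRK1 and 48.5% for DDC. Without shRB 2 the log2 fold changes were −0.62 for BCHE, −0.47 for SI and −0.39 for FOLH1, and with the correction for GC content −0.68, −0.55 and −0.45. All 3 passed in both fits (edgeR adjusted p of at most 0.00017).

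**Figure D3:**
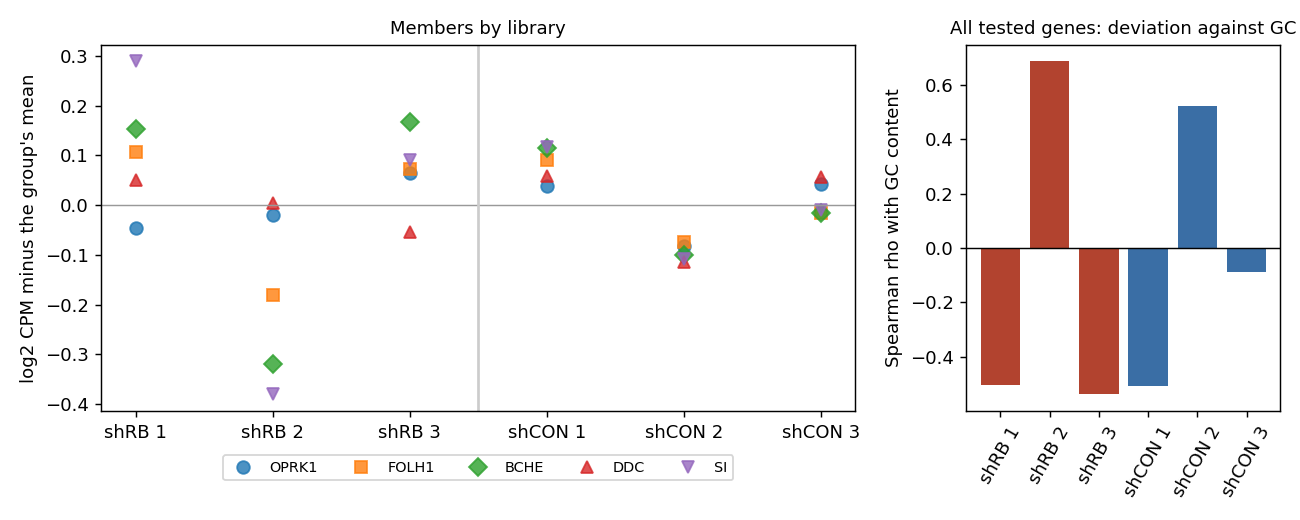
Left, log2 CPM of each member minus its group's mean, by library, with shRB left of shCON. Right, the Spearman correlation over all tested genes between that deviation and transcript GC content, where shRB 2 reached 0.69 and shCON 2 reached 0.52, and in shRB 2 SI, BCHE and FOLH1 lie lowest.

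BCHE and SI are separated by a single tested gene, SLITRK3, which encodes a synaptic adhesion protein. In gene order NMD3, SI, SLITRK3, BCHE and ZBBX are consecutive tested genes of chromosome 3, and all 5 fell. SLITRK3 had 117, 92.4 and 112 CPM in shRB 1 to 3 and 141, 134 and 141 CPM in shCON 1 to 3 (log2 fold change −0.37 ± 0.09 SE; edgeR adjusted p = 0.0081). NMD3, an export adaptor of the large ribosomal subunit, averaged 25.5 ± 5.01 CPM in shRB and 41.0 ± 6.52 CPM in shCON (SD, n = 3 each; edgeR adjusted p = 0.0044). ZBBX, with 61 to 80 counts in shRB and 55 to 234 in shCON, passed at an edgeR adjusted p of 0.046 and lost its call in 8 of 18 alternative fits, among them those without shRB 1, shRB 3, shCON 1 or shCON 3. KPNA4 before and PDCD10 after this run did not pass (0.12 and −0.01 on the log2 scale). On chromosome 3 as a whole 40 of 663 tested genes fell and 188 rose, with a median log2 fold change of 0.15. Over all tested genes 12.5% fell and 12.8% rose. The run holds the members SI and BCHE and was bounded by its own calls, so it was not tested against these shares.

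For FOLH1, the nearest 2 tested genes on either side had a median log2 fold change of 0.27, and NUP160, TNKS1BP1 and SSRP1 rose while FOLH1 fell. Around OPRK1 the median was −0.27, with 1 gene lower, the proton pump subunit ATP6V1H. Around DDC it was 0.25. GRB10, an adaptor of insulin receptor signalling that lies beside DDC, averaged 774.5 ± 19.6 CPM in shRB and 782 ± 26.5 CPM in shCON (SD, n = 3 each; edgeR adjusted p = 0.90), and COBL on its far side rose by 0.52 on the log2 scale (edgeR adjusted p = 0.00026). NUP160, TNKS1BP1, SSRP1 and ATP6V1H each lost their call in 3 to 6 of 18 alternative fits. All 4 did so without shCON 1 and without shCON 3, NUP160, TNKS1BP1 and ATP6V1H without shRB 3, and NUP160 also without shRB 1 and without shCON 2.

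**Figure D4:**
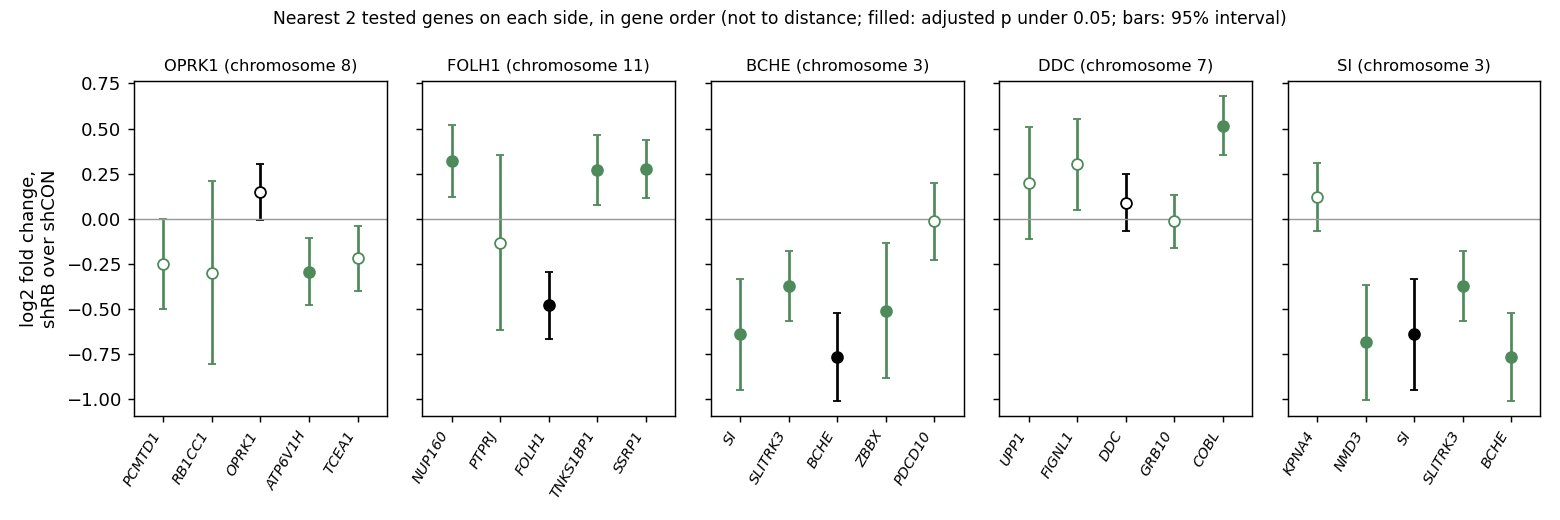
Log2 fold change of shRB over shCON, with 95% intervals, for each member (black) and the nearest 2 tested genes on each side (green), in gene order and not to distance, filled where the edgeR adjusted p was under 0.05. The run NMD3, SI, SLITRK3, BCHE and ZBBX on chromosome 3 lies below 0, while the tested neighbours of FOLH1 that passed lie above 0.

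Other androgen-repressed genes also moved both ways. Of 11 tested genes on a list of these, 3 rose, 7 fell and 1 did not pass, where 12.8% of all tested genes rose and 12.5% fell. The median log2 fold change of the list was −0.45 (−0.01 over all tested genes). The largest fall was in NOV, a secreted matricellular protein (1.91 ± 0.20 CPM in shRB and 7.64 ± 0.62 CPM in shCON, SD, n = 3 each). CAMK2N1, an inhibitor of calmodulin kinase II, had 146 ± 3.07 CPM in shRB and 327 ± 18.1 CPM in shCON, and the chemokine scavenger receptor ACKR3 had 178 ± 6.44 in shRB and 323 ± 7.50 in shCON (SD, n = 3 each; edgeR adjusted p no higher than 5.4e-06). PEG3, an imprinted zinc finger gene, rose by 1.42 on the log2 scale, though it shares exons with ZIM2, and SYT4 rose by 0.42. The UGT2B genes were split. UGT2B17, which inactivates androgens, fell by 1.12 and UGT2B15 by 0.45, while UGT2B11 rose by 1.81, though the UGT2B genes may share reads. The list was drawn up with earlier results of these data known and is no independent evidence of a direction.

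Few of the other opioid receptors or peptides in the count table were read. OPRD1 and PENK, also on the list, were not found there by name and so were not measured. OPRM1, the mu receptor, and the precursor genes POMC and PNOC had 0 counts in all 6 libraries. PDYN, the precursor of the dynorphins that activate the kappa receptor, had 1 count in all, in shCON. OPRL1, the nociceptin receptor, was low at 3.72 ± 0.42 CPM in shRB and 3.93 ± 0.34 CPM in shCON (SD, n = 3 each; edgeR adjusted p = 0.72). Of 7 tested genes 1 rose, 1 fell and 5 did not pass, against 25.3% of all tested genes that passed. The receptor-desensitising arrestin ARRB1 averaged 28.3 ± 2.02 CPM in shRB and 21.7 ± 1.20 CPM in shCON, and the inhibitory G protein subunit GNAI1 7.31 ± 0.12 CPM in shRB and 10.02 ± 1.22 CPM in shCON (edgeR adjusted p of 0.016 and 0.024). ARRB1 lost its call in 3 and GNAI1 in 5 of 18 alternative fits. Both were lost without shRB 1 and without shCON 1, and GNAI1 also without shRB 3.

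Among the relatives of FOLH1 and genes of folate handling, 3 of 12 tested genes rose, 2 fell and 7 missed the threshold. Their median log2 fold change was 0.07, and 25.3% of all tested genes passed. NAALAD2, the paralog with the same peptidase activity, fell to 4.55, 3.18 and 4.25 CPM in shRB 1 to 3, against 12.9, 8.83 and 10.4 CPM in shCON 1 to 3. That is 36.7% of the shCON level (log2 fold change −1.45 ± 0.19 SE; edgeR adjusted p = 1e-04), and the groups did not overlap. The transferrin receptor TFRC, which has a related fold, rose and averaged 541 ± 30.2 CPM in shRB and 399 ± 14.6 CPM in shCON (SD, n = 3 each; edgeR adjusted p = 0.00062). GGH, which trims folate polyglutamates, and MTHFD1 rose by 0.33 and 0.21 on the log2 scale. MTHFD1 shares exons with ZBTB25, which leaves it uncertain. GGH lost its call in 4 of 18 alternative fits, among them those without shRB 3, shCON 1 or shCON 2, and MTHFD1 in 8, among them every fit with a library left out other than shRB 2. The number of calls was 9 without shRB 2 and 3 without shRB 3 or without shCON 2.

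Of the partners of BCHE, PRIMA1, which anchors cholinesterase tetramers to the membrane, passed as lower. It had 2, 7 and 9 counts in shRB 1 to 3, against 32, 22 and 15 counts in shCON 1 to 3 (log2 fold change −1.70 ± 0.41 SE; edgeR adjusted p = 0.0078). ACHE, the acetylcholinesterase gene, was low at 0.98 ± 0.72 CPM in shRB and 1.04 ± 0.23 CPM in shCON (SD, n = 3 each), and CHAT, which makes acetylcholine, had 0 counts in all libraries. Of 12 tested genes 2 rose, 2 fell and 8 missed the threshold (median log2 fold change 0.15), and 25.3% of all tested genes passed. The choline transporter SLC44A1 averaged 294 ± 26.8 CPM in shRB and 190.4 ± 12.5 CPM in shCON, the synaptic cholinesterase-like adhesion gene NLGN1 16.1 ± 4.37 CPM in shRB and 8.58 ± 0.83 CPM in shCON, and the choline kinase CHKB 12.6 ± 1.11 CPM in shRB and 18.5 ± 0.80 CPM in shCON (SD, n = 3 each; edgeR adjusted p of at most 0.0038). CHKB shares exons with the CHKB-CPT1B read-through gene.

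In the amine pathway, TH and TPH2, which make DDC's substrates in neurons, and the histidine decarboxylase HDC had 0 counts in all libraries, and DBH, which uses dopamine, had 1 count in all. MAOA, which degrades serotonin and noradrenaline, rose to 417, 389 and 396 CPM in shRB 1 to 3, against 241, 246 and 246 CPM in shCON 1 to 3 (log2 fold change 0.71 ± 0.07 SE; edgeR adjusted p = 6.7e-06). MAOB had at most 2 counts in any library. ALDH2, an aldehyde dehydrogenase that clears MAO products, averaged 88.6 ± 0.47 CPM in shRB and 65.7 ± 1.64 CPM in shCON (SD, n = 3 each; edgeR adjusted p = 0.00098). Of 10 tested genes 2 rose, 2 fell and 6 missed the threshold (median log2 fold change −0.03), and 25.3% of all tested genes passed. The 2 falls were in QDPR, which regenerates tetrahydrobiopterin, and PDXK, which makes DDC's cofactor pyridoxal phosphate. Both falls were lost in 5 of 18 alternative fits, among them the fits without shRB 1, shRB 3, shCON 2 or shCON 3.

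Other genes of the intestinal brush border were at or near 0, unlike SI. Its paralog MGAM and the regulator CDX1 had 0 counts in all libraries and LCT, the lactase gene, had 1 count in all, in shRB. All 6 enterocyte markers in the table had fewer than 10 counts in every library, and their summed level was 0 to 0.106 CPM in shRB and 0 to 0.0981 CPM in shCON. Of 5 tested relatives and regulators 0 passed by edgeR, DESeq2 or limma-voom, and 1 had an unadjusted edgeR p under 0.05. By edgeR 25.3% of all tested genes passed. GATA6, a transcription factor of gut and endoderm, had the log2 fold change farthest from 0 of the 5 (0.30) and averaged 11.7 ± 0.51 CPM in shRB and 9.43 ± 0.97 CPM in shCON (SD, n = 3 each; edgeR adjusted p = 0.12).

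Markers of other cell types were low. Of 10 neuroendocrine markers 8 had fewer than 10 counts in every library, with CHGA at 1, 0 and 2 counts in shRB and 0 in every shCON library and INSM1 at 0 throughout. The summed level of that list was 61.2 to 74.0 CPM in shRB and 85.6 to 86.7 CPM in shCON, nearly all from ENO2. Stromal markers summed to 22.0 to 26.0 CPM in shRB and 42.0 to 50.1 CPM in shCON, with 5 of 8 under 10 counts in every library and PDGFRA and COL1A2 at 0. Of these, the intermediate filament gene VIM fell and averaged 8.47 ± 2.09 CPM in shRB and 25.3 ± 4.15 CPM in shCON (SD, n = 3 each; edgeR adjusted p = 2.6e-05). Leukocyte markers summed to 5.37 to 5.79 CPM in shRB and 5.88 to 7.95 CPM in shCON, with PTPRC at 0. Most of that came from CD68, which did not pass and whose groups overlapped. It averaged 5.07 ± 0.15 CPM in shRB and 5.92 ± 0.91 CPM in shCON (SD, n = 3 each; edgeR adjusted p = 0.25). All 3 marker sums were lower in shRB without overlap. The sum of 10 luminal prostate markers was 4770 to 5300 CPM in shRB and 4843 to 5118 CPM in shCON, with overlap. FOLH1, BCHE and SI were also lower without overlap, as were 20.2% of all tested genes, a share of single genes and not of sums. The part of other cell types in the result was not tested. In bulk RNA, fewer cells that express a gene and less RNA per cell cannot be told apart.

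The 2 genes most like each member were taken from 9948 tested genes with a mean of at least 5 CPM, by the root mean square difference described above. For BCHE they were EPHA7, an ephrin receptor (0.04), and the non-coding MALINC1 (0.05), which fell by 0.75 and 0.73 on the log2 scale. For SI they were the desmosomal cadherin DSG2 (0.05), which shares exons with DSG2-AS1, and FAM135A (0.06), whose call was lost without shCON 1. For FOLH1 they were the mismatch repair gene PMS2 (0.03) and UGT2B15 (0.03), which inactivates androgens. Both belong to families of near-identical copies that may share reads. For OPRK1 they were PERP and CSTF2T, and for DDC MRPL13 and ESYT2, none of which passed. Since the measure spans both groups, fold changes near those of the members follow from the choice.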

How the data were processed

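The authors deposited raw read counts, whole numbers that had not been normalized, with a row for each transcript. The submitters' processing notes name STAR, HOMER, edgeR and hg19 but neither versions nor roles. Per the labels' protocols, libraries came from a TruSeq RNA kit. The sources used here do not give the annotation, counting options or strand setting. Whether replicates were separate cultures is not stated, so the spread behind each p-value may be technical.

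Of 22279 IDs, 22182 matched GENCODE release 29 and gave gene names, order, exon overlap, length and GC content. The other 97 held 0.38% of counts and stayed in library totals. The exons of the members' transcripts overlap no other GENCODE gene. Counts were filtered (filterByExpr, at least 10 counts and a total of 15), scaled by TMM and tested with edgeR 4.0.16 (R 4.3.3; quasi-likelihood test, group as the only term), with Benjamini-Hochberg adjustment over all 11712 tested genes and a threshold of 0.05. Standard errors are the log2 fold change divided by the square root of F. Log2 CPM used a prior count of 2. Replicate pairs differed by 2.23 to 11.4 times the noise of sampling (chi-square over its degrees of freedom). The procedure was tested on simulated counts.

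The members and gene lists were chosen with earlier results of these data known. Named genes were the members, RB1, up to 4 genes of smallest p per list, direct partners of the members, the nearest 2 tested neighbours on each side and the 2 most alike genes. Others named were chosen after their values were seen, and some genes counted in the lists are not reported here by name. Alternatives were DESeq2 1.42.0, limma-voom (limma 3.58.1), robust fitting, 3 normalizations, 2 filters, a stricter threshold, the replicate number as a block and each library left out. A GC offset (a lowess curve per library, span 0.3), alone and with the block, was chosen after seeing the data. Counts per library were 165 to 799 for SI and at least 1177 for the other members.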

Additional observations from a re-analysis of the deposited data

How the results depend on the processing

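FOLH1, BCHE and SI fell and passed in all 18 alternatives run (log2 fold change −0.53 to −0.39, −0.85 to −0.62 and −0.79 to −0.47, which are also the ranges with 1 library left out), and DDC passed in none (0.04 to 0.12). OPRK1 was positive in all 18 and passed in 2, with the GC offset (0.18; adjusted p = 0.013) and with the GC offset and replicate block (0.17; adjusted p = 0.0095). The other androgen-repressed list had 10 to 12 calls throughout.

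At an adjusted p under 0.01, 787 genes were higher and 793 lower. With the replicate block 2202 were higher and 2294 lower, with the GC offset 2308 were higher and 2256 lower, and with both 2466 and 2403. With 1 library left out, 863 to 2074 genes were higher and 912 to 1956 lower (863 and 912 without shCON 1, 969 and 964 without shCON 3). Same-numbered deviations correlated at 0.24, 0.35 and −0.00, and other-numbered ones at −0.37 to 0.27. The library shRB 3 correlated better with shCON 1 (0.27) than with shCON 3. Whether replicate numbers mark pairs cannot be told from these values. The block changed no call of a member.

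Calls among corepressors numbered 4, and 7 with the replicate block, the GC offset or both, 2 at the stricter threshold and 2 to 7 with 1 library left out. In the opioid list there were 2, and 1 by DESeq2, 5 with the block, 4 with the GC offset with or without the block, 0 at the stricter threshold and 0 to 2 with 1 library left out. In the folate list there were 5, and 8 with the block, 9 with the GC offset with or without the block, 3 at the stricter threshold and 3 to 9 with 1 library left out. In the cholinergic list there were 4, and 7 with the block, alone or with the GC offset. In the amine list there were 4, and 2 at the stricter threshold and 2 to 5 with 1 library left out. Causes were not tested, except that the stricter threshold calls fewer genes by construction.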

Other observations

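Corepressors that take part in the androgen repression of genes such as those above were counted as a list. Of 16 tested, 2 rose, 2 fell and 12 did not pass, against 25.3% of all tested genes that passed, with a median log2 fold change of 0.06 (−0.01 over all tested genes). NRIP1, a ligand-dependent corepressor of nuclear receptors, averaged 76.8 ± 17.1 CPM in shRB and 147 ± 7.86 CPM in shCON (SD, n = 3 each; edgeR adjusted p = 0.00014). RBBP7, a histone-binding subunit of deacetylase and Polycomb complexes, averaged 242 ± 3.49 CPM in shRB and 174 ± 2.31 CPM in shCON (SD, n = 3 each; edgeR adjusted p = 2e-04), with exons shared with TXLNG. RCOR1, a scaffold of the demethylase KDM1A, fell by 0.28 on the log2 scale, and the Polycomb methyltransferase EZH2 rose by 0.45. RCOR1 lost its call in 3 of 18 alternative fits, among them those without shCON 1 or shCON 3, and EZH2 in 8, among them those without shRB 1, shRB 3, shCON 2 or shCON 3. The list had 7 calls without shRB 2, 2 without shCON 3, and 7, of which 5 were higher, with the replicate block or the GC offset. KDM1A averaged 103 ± 4.62 CPM in shRB and 93.7 ± 4.56 CPM in shCON (SD, n = 3 each; edgeR adjusted p = 0.23).

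Of 10 luminal prostate markers, 3 rose and 7 did not pass, against 25.3% of all tested genes that passed. Among these markers KLK2 and KLK3, which androgen induces, rose by 0.98 and 0.45 on the log2 scale (edgeR adjusted p of at most 0.0027). They were chosen after their values were seen, and KLK2 and KLK3 may share reads. Of the neuroendocrine markers, ENO2 fell by 0.39 on the log2 scale (edgeR adjusted p = 0.0054), and SYP was at 1.65 ± 0.15 CPM in shRB and 1.36 ± 0.58 CPM in shCON (SD, n = 3 each; edgeR adjusted p = 0.86).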
